A study of Homo sapiens with 4 samples.

Results

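The BCL2 family of apoptosis regulators was examined in IMR90, human lung fibroblasts that divide a limited number of times in culture, after depletion of HMGB1, an abundant DNA-binding chromatin protein. The 10 members, PMAIP1, BBC3, BAX, BAK1, BID, BCL2, BCL2L1, BCL2L11, MCL1 and BCL2A1, were chosen by name, with earlier results of these data known. They are 10 of the 63677 genes in the count tables, each with a single identifier on a primary chromosome. Expression was measured by RNA-seq of poly(A)-selected RNA in 2 control and 2 HMGB1 knockdown libraries. Control cells received non-targeting siRNA and knockdown cells siRNA against HMGB1, both delivered with RNAiMAX, and both were harvested after 72 h. All libraries came from cells at passage 5, and the labels name no further treatment. In each group, replicate 1 was the isolate I90-10 and replicate 2 the isolate I90-79, so each isolate gives a knockdown with its own control. The study's methods give 2 different siRNAs for IMR90, but the labels do not say which of them a library received.

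This family decides whether the outer membrane of mitochondria stays sealed. The effectors BAX and BAK1 form pores through which cytochrome c leaves the mitochondrion, and the pro-survival proteins MCL1, BCL2L1 (Bcl-xL), BCL2 and BCL2A1 hold them in check. BH3-only proteins tip this balance, since their BH3 helix fills a groove on the pro-survival proteins: BCL2L11 (BIM), BBC3 (PUMA) and BID bind all or most of them, while PMAIP1 (NOXA) binds chiefly MCL1 and BCL2A1. Fibroblasts rely on this network to survive stress, and senescent fibroblasts are known for their resistance to apoptosis.

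The BH3 segment is the part of the protein that the members share, and its coding sequence is shown for the 6 members on which the results below mostly turn. It was found by a search of the reference coding sequence for a leucine codon, 3 codons of any kind, a codon for glycine or alanine and a codon for aspartate. This pattern of 6 codons occurred exactly once in 9 of the 10 members and was not found in BCL2A1. Capitals mark the 18 bases of the pattern, with 6 bases on either side, in hg19.
PMAIP1 (chr18:57569899-57569928, plus strand): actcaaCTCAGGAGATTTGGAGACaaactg
BCL2L11 (chr2:111907674-111907703, plus strand): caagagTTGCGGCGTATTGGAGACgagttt
BBC3 (chr19:47729842-47729871, minus strand): gcccagCTGCGGCGGATGGCGGACgacctc
MCL1 (chr1:150551347-150551376, minus strand): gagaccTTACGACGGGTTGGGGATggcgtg
BCL2L1 (chr20:30309731-30309760, minus strand): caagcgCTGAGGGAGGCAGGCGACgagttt
BAX (chr19:49459038-49459067, plus strand): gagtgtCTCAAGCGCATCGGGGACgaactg
Among the 9 members with the pattern, BBC3 alone carries alanine in place of glycine at its last position but one. The codons between the leucine and the glycine or alanine differ from member to member, and each 30-base stretch lies within a single exon.

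The libraries held between 29861687 and 35317010 reads counted on genes, and values are given as CPM, read counts scaled by library size with the TMM method. HMGB1 had 181 and 237 CPM in the control libraries of I90-10 and I90-79 and 15.96 and 18.9 CPM in the knockdown libraries, so that it fell by 3.59 on the log2 scale (SE, the standard error, 0.19; adjusted p = 0.0075 by edgeR's quasi-likelihood test). Fibroblast markers summed to between 19320 and 35580 CPM and were higher in both I90-10 libraries than in both I90-79 libraries, whereas the epithelial list summed to at most 1.57 CPM and the blood list to at most 0.69 CPM. KRT5, CDH5, CD3E and LYZ had 0 reads in every library, and most of the 135 to 150 CPM of the endothelial list was TEK. The smooth muscle and pericyte list summed to 156 and 116 CPM in control and 109.5 and 95.97 CPM in knockdown libraries. With the replicate block described below, edgeR called 5 of the markers, LUM (0.83) and VWF (1.55) at higher and PDGFRB (−0.68), THY1 (−0.99) and CNN1 (−0.88) at lower log2 values in the knockdown, and the part of these shifts in the members' results was not tested. In such bulk samples, fewer cells of a kind and less RNA per cell cannot be told apart.

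To be called, a gene needed an adjusted p under 0.01 together with a log2-fold change beyond 0.6 in either direction. All 10 members passed the filter on low counts. Without a term for the isolate, 0 members were up- and 0 were downregulated by edgeR, against 0.0649% and 0.136% of the 15398 genes tested. An unadjusted p under 0.05 was reached by 3 higher members and 1 lower member, and by 13.6% and 14.7% of all genes. Adding the isolate as replicate block, which compares each knockdown library with its own control, made edgeR call 3 members up (PMAIP1, BCL2L11 and MCL1) and 1 down (BCL2L1), against 6.68% up and 7.84% down among all genes. DESeq2 called 2 up and 1 down (4.73% and 5.31% of all genes), as did RUVs followed by DESeq2 (4.96% and 5.39%). In both cases MCL1 was the member not called. The study's methods name RUVs and DESeq2, but RUVs was here written out from its description with 1 factor, so this is not the study's own run.

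In 5 members both knockdown libraries lay above both control libraries (PMAIP1, BCL2L11, MCL1, BAK1 and BID), and in 2 they lay below (BCL2L1 and BBC3). Of all genes tested, 29.8% and 30.2% were separated in this way. The median log2-fold change of the 10 members was 0.24, beside −0.0054 over all genes, and the median of its absolute size was 0.48 beside 0.33. The sign was the same in both isolates for 8 of the 10 members, and for 12058 of the 15398 genes tested.

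**Figure D1:**
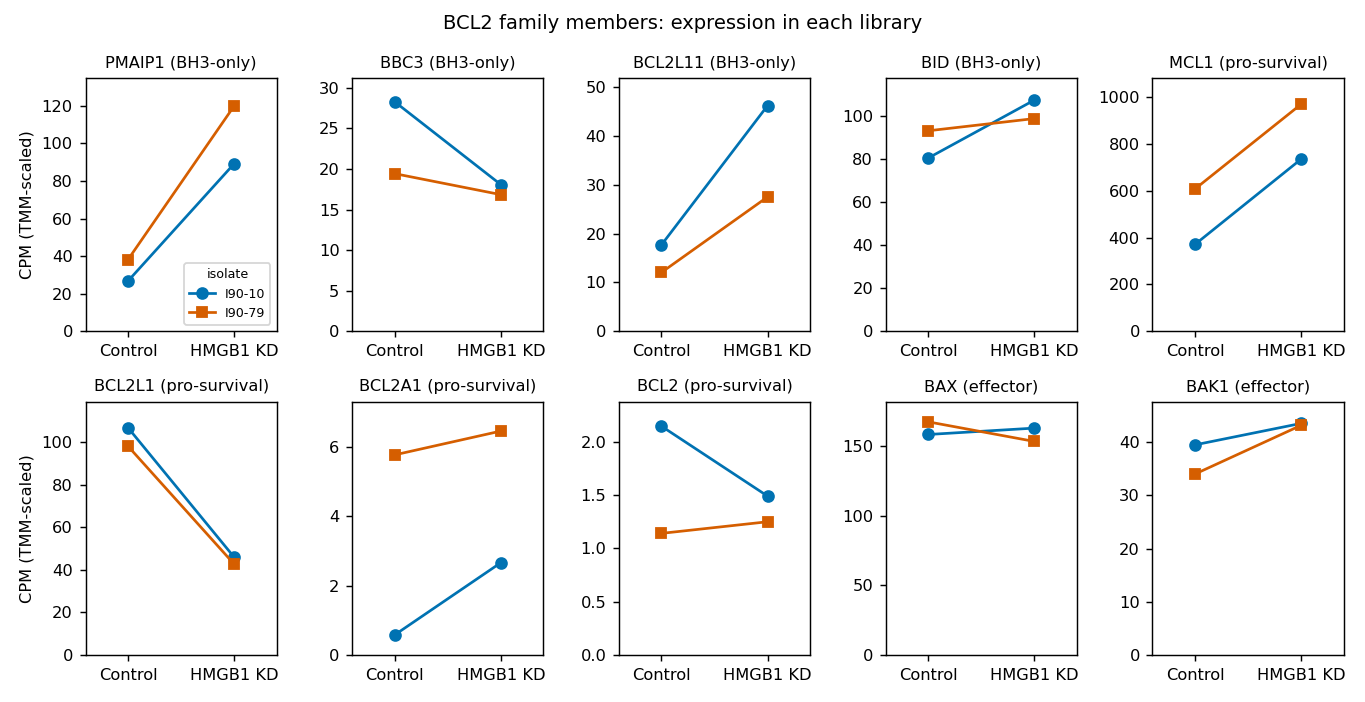
CPM (vertical axes, each from 0) of the 10 members in control and HMGB1 knockdown (KD) libraries, with a line joining the libraries of one isolate. Both lines climb for PMAIP1, BCL2L11 and MCL1 and drop for BCL2L1, while for BAX and BCL2 the line of one isolate climbs and that of the other drops.

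Among the BH3-only members, PMAIP1 and BCL2L11 were higher upon HMGB1 knockdown in both isolates, BID was slightly higher and BBC3 slightly lower. PMAIP1 (ENSG00000141682, chr18:57567180-57571538), a p53 target that neutralises MCL1, had 26.7 CPM in the I90-10 control and 38.1 CPM in the I90-79 control. The knockdown libraries had 89.2 and 120 CPM, so both of them were above both controls. The mean went from 32.4 ± 8.06 to 104.6 ± 21.8 CPM (SD, n = 2 each), a fold change of 3.22. The log2-fold change was 1.69 (SE 0.23, adjusted p = 0.022 by edgeR) without the block, and PMAIP1 rose by 1.70 (SE 0.10, adjusted p = 4.3e-05) with it. The isolates I90-10 and I90-79 gave log2-fold changes of 1.74 and 1.65. By p, PMAIP1 stood at rank 428 of 15398 genes without the block and at rank 58 with it.

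BCL2L11 (ENSG00000153094, chr2:111876955-111926024) encodes BIM, a BH3-only protein that can both occupy pro-survival proteins and activate BAX directly. It had 17.7 and 12.05 CPM in the controls of I90-10 and I90-79 and 46.3 and 27.5 CPM in the knockdown libraries. Both knockdown values were above both control values, and in either group I90-10 was the higher isolate. The mean of 14.9 ± 3.998 CPM became 36.9 ± 13.2 CPM (SD, n = 2 each), a fold change of 2.48. The log2-fold change of 1.31 did not pass the threshold without the block (SE 0.31, adjusted p = 0.066 by edgeR), and with the block BCL2L11 rose by 1.29 (SE 0.11, adjusted p = 1.8e-04). Without knockdown replicate 1 the value was 0.89, and without knockdown replicate 2 it was 1.64. Cut into 50-base pieces, the BCL2L11 transcripts share 9.58% of them with MIR4435-2HG.

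BID (ENSG00000015475, chr22:18216906-18257536), which caspase-8 cleaves to carry a death receptor signal to mitochondria, had 80.3 and 92.95 CPM in control and 107 and 98.6 CPM in knockdown libraries. The groups did not overlap, but the log2-fold change of 0.25 (SE 0.13) passed the threshold neither without the block (adjusted p = 0.26 by edgeR) nor with it (adjusted p = 0.12). BBC3 (ENSG00000105327, chr19:47724081-47736023), the p53 target PUMA, had 28.3 and 19.4 CPM in control and 18.1 and 16.8 CPM in knockdown libraries. Here both knockdown values were below both controls, most of the difference coming from I90-10, whose log2-fold change was −0.65 against −0.21 in I90-79. The fitted value was −0.45 (SE 0.21, adjusted p = 0.23 by edgeR), and −0.43 with the block (adjusted p = 0.049), past neither the p nor the fold threshold. Without control replicate 1 it was −0.16. The p53 targets PMAIP1 and BBC3 thus differed in sign in either isolate, and the difference between them was not tested.

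Of the 4 pro-survival members, MCL1 was higher and BCL2L1 lower in the knockdown of either isolate, and BCL2 and BCL2A1 were expressed at a low level with no call. MCL1 (ENSG00000143384, chr1:150547032-150552066), a short-lived protein and the main partner of NOXA, had 371 and 607 CPM in the control libraries of I90-10 and I90-79. It had 735 and 969 CPM in the knockdown libraries. The lower knockdown value was above the higher control, and in either group I90-79 was the higher isolate. The mean was 489 ± 167 CPM in control and 852 ± 166 CPM in knockdown libraries (SD, n = 2 each), a fold change of 1.74. Without the block the log2-fold change was 0.80 (SE 0.28, adjusted p = 0.14 by edgeR), and with it MCL1 rose by 0.83 (SE 0.11, adjusted p = 0.0010). RUVs followed by DESeq2 gave 0.54 (adjusted p = 0.0010), below the fold threshold. Leaving out control replicate 1 gave 0.49, and leaving out control replicate 2 gave 1.20.

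BCL2L1 (ENSG00000171552, chr20:30252255-30311792) encodes Bcl-xL, which guards mitochondria against BAX and BAK1 and binds BIM and PUMA but hardly NOXA. Its control libraries had 107 and 98.0 CPM and its knockdown libraries 45.9 and 42.6 CPM. The groups lay far apart relative to the distance between isolates, with means of 102 ± 6.13 and 44.2 ± 2.30 CPM (SD, n = 2 each), and the knockdown mean was 2.31-fold lower. The log2-fold change of −1.21 (SE 0.12, adjusted p = 0.012 by edgeR) fell just short of the threshold without the block, and BCL2L1 fell by 1.21 with it (SE 0.096, adjusted p = 1.2e-04). The isolates gave −1.22 and −1.20, the closest agreement among the 10 members. Both spliced forms of BCL2L1, the pro-survival Bcl-xL and the pro-apoptotic Bcl-xS, are summed in a count per gene. Cut into 50-base pieces, BCL2L1 transcripts share 35.6% of them with ABALON, an RNA annotated on the opposite strand of the same locus, and the other pieces are not shared. The gene models of the count tables hold 0 bases of overlap between BCL2L1 and another gene. Since the strand setting of the counts is not given in the sources used here, reads from the shared stretch cannot be told apart by gene.

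BCL2A1 (ENSG00000140379, chr15:80253231-80263788), an NF-κB target, had 0.58 CPM in the I90-10 control and 5.78 CPM in the I90-79 control, from 17 and 213 reads. The knockdown libraries had 2.67 and 6.47 CPM. The isolates were thus further apart than the groups, which overlapped. The log2-fold change was 2.20 in I90-10 and 0.16 in I90-79, and the fits gave 0.51 (SE 0.98, adjusted p = 0.77 by edgeR) and 0.84 with the block (SE 0.40, adjusted p = 0.15). BCL2 itself (ENSG00000171791, chr18:60790579-60987361), the founding member of the family, had 2.15 and 1.14 CPM in control and 1.49 and 1.25 CPM in knockdown libraries. These values rest on 39 to 63 reads a library and overlap between the groups. Its log2-fold change was −0.25 (SE 0.41, adjusted p = 0.73 by edgeR), a difference smaller than its error.

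The effectors BAX and BAK1 were not called in any fit. BAX (ENSG00000087088, chr19:49458072-49465055) had 158 and 168 CPM in control and 163 and 153 CPM in knockdown libraries, and the groups overlapped. Its log2-fold change of −0.043 had an SE of 0.11 (adjusted p = 0.84 by edgeR, and 0.77 with the block). BAK1 (ENSG00000030110, chr6:33540329-33548019) had 39.5 and 34.0 CPM in control and 43.6 and 43.2 CPM in knockdown libraries. Both knockdown values were above both controls, yet the log2-fold change of 0.24 (SE 0.13) was not past the threshold in either fit (adjusted p = 0.28 by edgeR, and 0.12 with the block). It was 0.13 without control replicate 2. BAK1 transcripts share 14.3% of their 50-base pieces with BAK1P1, a pseudogene, and GGNBP1.

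**Figure D2:**
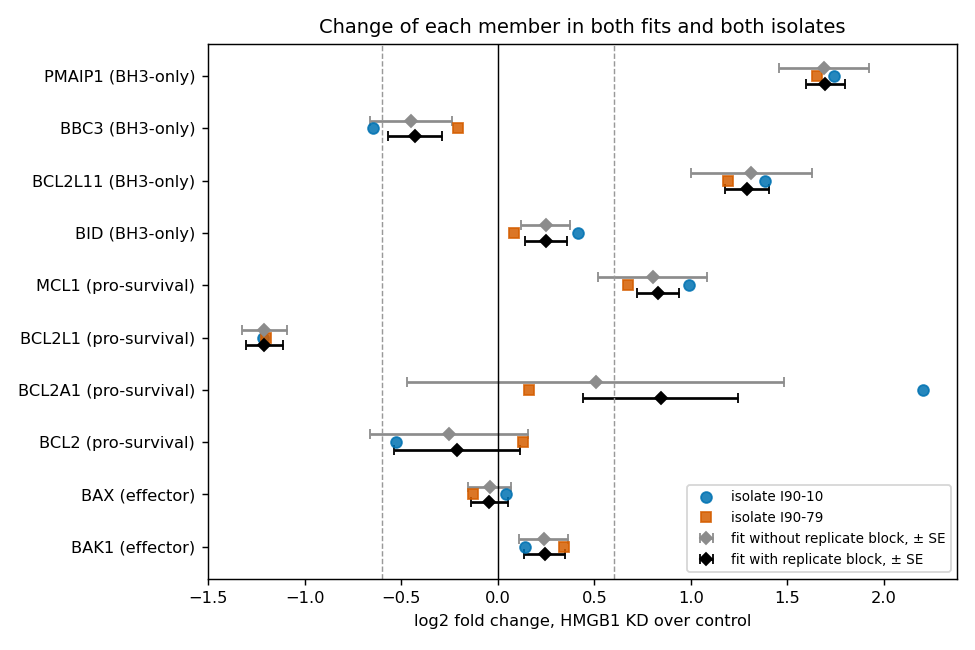
Log2-fold change (horizontal axis, HMGB1 knockdown over control) of each member in isolate I90-10 (circles) and I90-79 (squares), with the edgeR estimates without (grey) and with (black) the replicate block and their standard errors; dashed lines mark 0.6 in either direction. PMAIP1, BCL2L11 and MCL1 lie to the right of 0.6 and BCL2L1 to the left of −0.6 in both isolates, and the error of BCL2A1 without the block (0.98) is the widest.

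To compare levels between members, CPM were divided by the exonic length of the gene in kb. In control libraries the order was MCL1 (116 ± 39.7 CPM per kb, SD, n = 2), BAX (63.0 ± 2.48), BCL2L1 (30.9 ± 1.85), BID (19.6 ± 2.02), BAK1 (16.2 ± 1.71), PMAIP1 (14.5 ± 3.61), BBC3 (7.51 ± 1.97), BCL2A1 (2.92 ± 3.38), BCL2L11 (2.23 ± 0.60) and BCL2 (0.21 ± 0.093). The libraries of neighbours in this order overlapped for BAK1 and PMAIP1 and for BCL2A1 and BCL2L11. In knockdown libraries PMAIP1, at 46.8 ± 9.74 CPM per kb (SD, n = 2), took the third place that BCL2L1 had held, and BCL2L1, at 13.3 ± 0.70, took the sixth place of PMAIP1. MCL1 (202 ± 39.3) and BAX (61.2 ± 2.63) remained the first and the second. BCL2L11 (5.54 ± 1.99), BBC3 (5.49 ± 0.27) and BCL2A1 (4.19 ± 2.47) overlapped with each other there, and BCL2 (0.18 ± 0.022) was again the lowest.

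The make-up of the pro-survival transcripts differed between the groups. Per length, MCL1 made up 72.7% and 80.4% of the 4 pro-survival members in the controls of I90-10 and I90-79, and 91.4% and 92.4% in the knockdown libraries. BCL2L1 went from 26.6% and 16.5% to 7.26% and 5.17%. The 2 knockdown shares of either gene lay closer to each other than the control shares did, and the groups did not overlap. BCL2A1 held at most 2.97% and BCL2 at most 0.23% in any library. Summed over the 4 members, the level was 121 and 179 CPM per kb in control and 191 and 249 CPM per kb in knockdown libraries. This sum was thus higher in either isolate while BCL2L1 was lower. The pro-apoptotic members summed to 120.4 and 125.8 CPM per kb in control and 159.1 and 163.8 CPM per kb in knockdown libraries. Their sum was also higher in either isolate. With 2 libraries per group, an exact two-sided permutation test of such a value cannot give a p below 0.333, and these shares and the ratios below are given without a test.

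Some of the ratios between a BH3-only member and a pro-survival member that it binds were computed, and they differed by partner. Those of BBC3 and BID to MCL1 were not among them. BBC3 was lower in the knockdown of either isolate while MCL1 was higher. BID rose by 0.42 and 0.086 on the log2 scale in I90-10 and I90-79, less than MCL1 (0.99 and 0.67). Both of these ratios were therefore lower in the knockdown of either isolate. The ratio of PMAIP1 to MCL1, per length, was 0.14 and 0.12 in control and 0.23 in both knockdown libraries (0.229 and 0.234), although MCL1 was itself higher there. That of BCL2L11 to BCL2L1 was 0.083 and 0.061 in control and 0.50 and 0.32 in knockdown libraries, the widest separation of the ratios examined. The ratio of BBC3 to BCL2L1 was 0.28 and 0.21 in control and 0.41 in both knockdown libraries, though BBC3 was not itself higher. The ratio of BCL2L11 to MCL1 was 0.030 and 0.013 in control and 0.040 and 0.018 in knockdown libraries, higher in the knockdown of either isolate, but with overlapping groups, since I90-10 was above I90-79 in both conditions. BAX to BCL2L1 went from 1.90 and 2.19 to 4.55 and 4.61, while BAX to BAK1 was 3.52 and 4.32 in control and 3.28 and 3.11 in knockdown libraries, lower in either isolate. All of these are ratios of mRNA, and protein was not measured here.

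**Figure D3:**
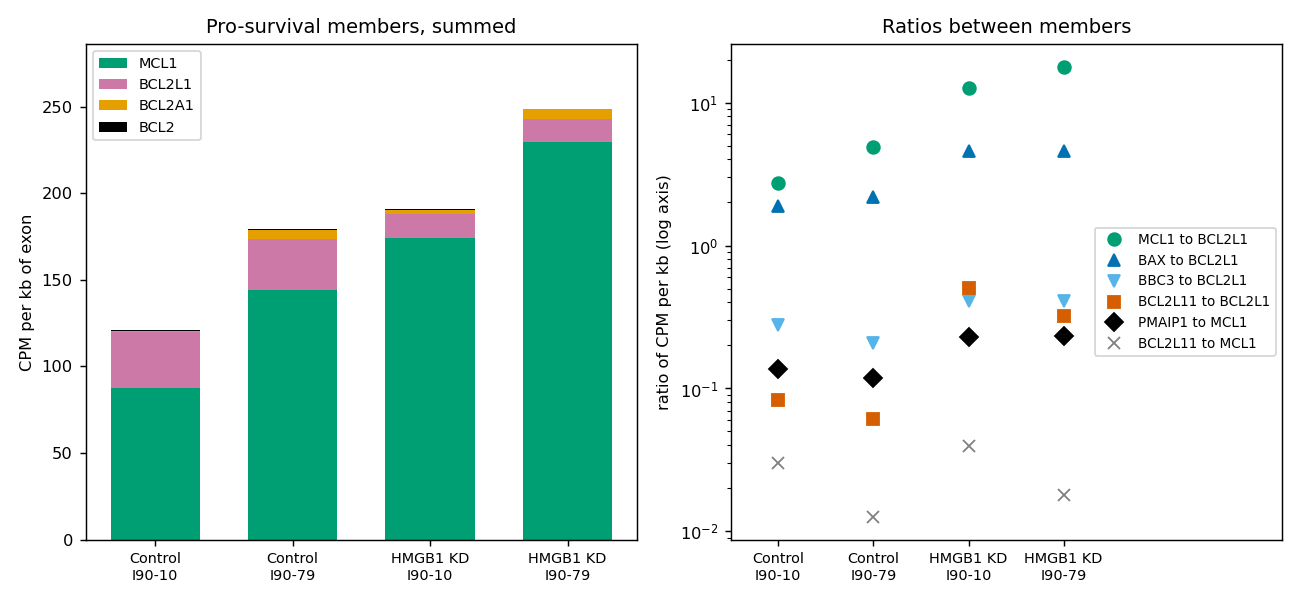
Left, CPM per kb of exon of the 4 pro-survival members stacked for each library; right, ratios of CPM per kb between members in the same libraries on a log axis. The BCL2L1 segment shrinks from 32.2 and 29.6 to 13.8 and 12.9 CPM per kb while the whole bar is taller in the knockdown of either isolate, and the ratio of BCL2L11 to MCL1 is the one whose groups overlap.

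The 3′ UTRs of the members were searched on the sense strand for the word GCAGTT, since it marks genes that were lower in these libraries; it had been picked out from the same data, so the link is not independent evidence. Of 12359 genes tested with a 3′ UTR of at least 100 bases, 63.8% have 0 copies, and their median log2-fold change was 0.069. It was −0.098 with 1 copy, −0.22 with 2 copies and −0.32 with 3 or more. The 3′ UTRs with more copies are also longer, with medians of 886 and 5444 bases at the 2 ends. Among genes with 3′ UTRs of median length or more, the medians for the same classes were 0.065, −0.061, −0.20 and −0.32. The part of length was not tested. BCL2, BCL2L1 and BCL2L11 hold 2 copies each, BAK1, BID and MCL1 hold 1, and PMAIP1, BBC3, BAX and BCL2A1 hold 0. The sites of the 3 called members that have any are shown with the word in capitals, in hg19.
BCL2L1 site 1 (chr20:30253026-30253055, minus strand): agggtggcccttGCAGTTcagcaccaccct
BCL2L1 site 2 (chr20:30252277-30252306, minus strand): gaaggtgaaagtGCAGTTcagtaataaact
BCL2L11 site 1 (chr2:111925148-111925177, plus strand): aggtgctgcattGCAGTTgttcagggctag
BCL2L11 site 2 (chr2:111925864-111925893, plus strand): agcatttgtattGCAGTTtccctggcttac
MCL1 site (chr1:150549771-150549800, minus strand): aaaccagtttatGCAGTTggactccaagct
With 2 copies each, BCL2L1 was lower, BCL2L11 higher and BCL2 not called, so the number of copies did not order the members. The part of this word in the change of BCL2L1 was not tested.

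**Figure D4:**
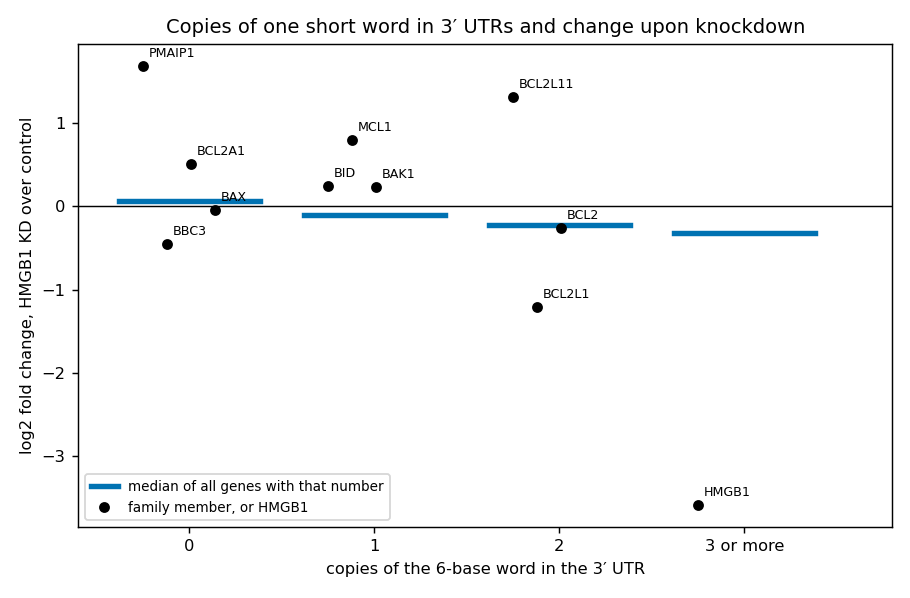
Log2-fold change without the replicate block (vertical axis) of the members and HMGB1 against the number of GCAGTT copies in the 3′ UTR (horizontal axis); blue bars are medians over all genes with that number. The medians step down from 0.069 to −0.32, whereas the members with 2 copies spread from −1.21 (BCL2L1) to 1.31 (BCL2L11). HMGB1, with 3 copies, is the gene that the siRNA targets and is not a family member.

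The rest of the apoptosis machinery was read from 65 other genes in 6 lists, of which 57 were tested. Their median log2-fold change was −0.018, and without the block 0 were up- and 0 downregulated by edgeR. An unadjusted p under 0.05 was reached by 10 higher and 11 lower genes, beside 13.6% and 14.7% of all genes tested. Under the replicate block, 1 was called up and 8 down, beside 6.68% and 7.84% of all genes tested. Both knockdown libraries lay above both controls for 16 of the 57 and below for 22, beside 29.8% and 30.2% of all genes. Among 8 other BCL2 family genes tested, 1 was called with the block, BNIP3L, a mitophagy receptor with a BH3-like segment. Its log2-fold change of −0.602 (adjusted p = 0.0020 by edgeR) lay just past the threshold of 0.6. DESeq2 did not call it with or without the block, and RUVs and DESeq2 gave −0.51, also without a call. Of the 13 genes of this list, 8 passed the filter on low counts, and some BH3-only and pro-survival genes were not among them. The further BH3-only and pro-survival genes that were tested were not called, which does not show that their levels were unchanged.

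Downstream of the mitochondrial pore, cytochrome c (CYCS) binds APAF1 to build the apoptosome, which activates caspases. Of 10 such genes, all tested, 1 rose and 2 fell with the block. CYCS had 56.9 and 83.0 CPM in control and 114 and 145 CPM in knockdown libraries, a log2-fold change of 0.90 (adjusted p = 4.5e-04 by edgeR with the block). CYCS is known for its many pseudogenes, to which the counting of unique reads can lose reads. APAF1 had 60.8 and 49.1 CPM in control against 27.8 and 27.4 CPM in knockdown libraries and fell by 0.98 on the log2 scale (adjusted p = 5.3e-04), and CASP2 fell by 0.69 (adjusted p = 0.0025). Cytochrome c and its partner APAF1 therefore differed in direction in both isolates.

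Of 5 inhibitors of apoptosis tested, XIAP, which blocks executioner caspases, was the one called with the block, at a log2-fold change of −0.94 (adjusted p = 5.7e-04 by edgeR). In the death receptor arm, 11 of 12 genes were tested and FAS, the receptor of FAS ligand, was called at −0.81 (adjusted p = 0.0026), beside a median of −0.25 for the list. Among 10 mitochondrial partners and turnover factors, TRIB3, a stress-induced pseudokinase, was called at −0.72 (adjusted p = 0.0025). Of 13 upstream regulators tested, FOXO3 and HIF1A were called with the block. FOXO3, a transcription factor known to drive BCL2L11 and BBC3, had 88.6 and 68.4 CPM in control and 26.0 and 23.6 CPM in knockdown libraries, a log2-fold change of −1.66 (adjusted p = 0.013 by edgeR) without and −1.65 (adjusted p = 6.1e-05) with the block. HIF1A fell by 0.94 (adjusted p = 5.5e-04). The lower FOXO3 stood beside a higher BCL2L11 and no call for BBC3, and its part in either was not tested.

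**Figure D5:**
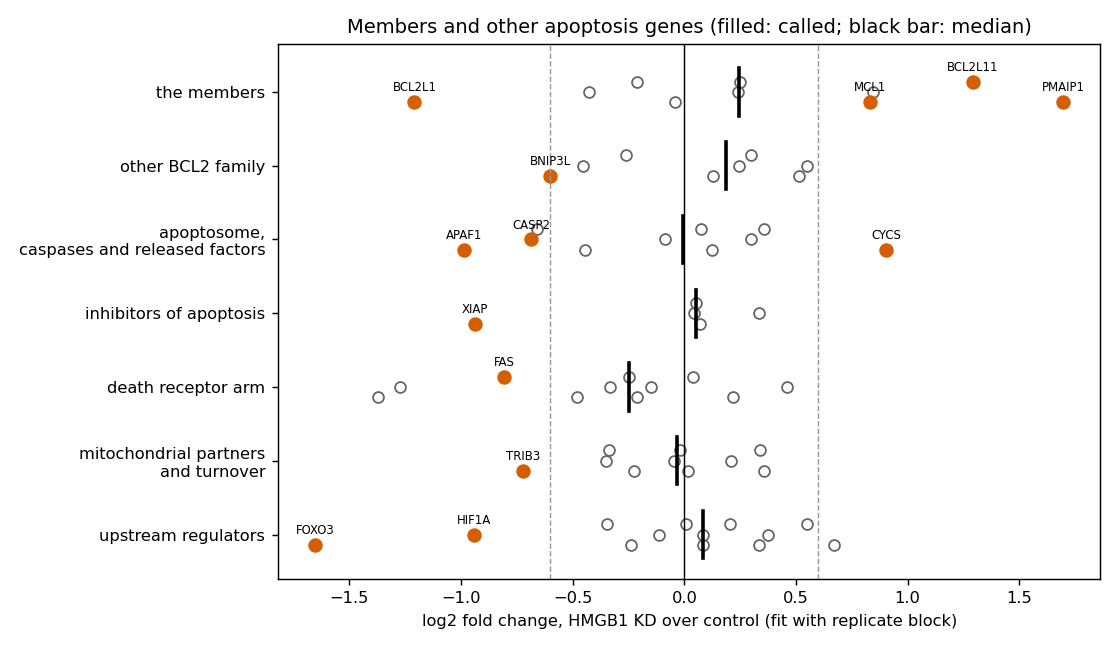
Log2-fold change with the replicate block (horizontal axis) of the members and of 6 lists of other apoptosis genes; each point is a gene, filled and named where called, black bars are list medians and dashed lines mark 0.6 in either direction. Of the 10 members, 3 were called up and 1 down, and of the 57 genes tested in the other lists, 1 and 8. Among all genes tested, 6.68% were called up and 7.84% down.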

How the data were processed

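RNA-seq was performed on 2 control and 2 HMGB1 knockdown libraries of IMR90. The authors mapped paired-end reads to hg19 with STAR and deposited raw counts of unique reads per gene from featureCounts, with the exonic length of each gene. Versions, the annotation release and the strand setting are not given in the sources used here. Groups and isolates were taken from the labels.

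Counts were tested with edgeR 4.0.16 (R 4.3.3): filterByExpr (15398 of 63677 genes), TMM, the quasi-likelihood test over all genes and Benjamini-Hochberg adjustment, with no term for the isolate. The standard error is the log2-fold change divided by the root of F. Since the labels give each group the same pair of isolates, the results are printed also from a model with isolate as replicate block (correlation of replicate differences 0.464). P-values rest on the spread between these 4 libraries, with the variance of each gene moderated by that of all genes. With the block, the difference between isolates is taken out of this spread. Alternatives were DESeq2 1.42.0, RUVs with 1 factor (written out from its description) and DESeq2, DESeq2 or upper-quartile factors, no filter, at least 10 counts in every library, bias-adjusted deviances, thinned counts, other thresholds and leaving out each library. The members and lists were chosen with earlier results of these data known. The text names all 10 members, HMGB1 and, of each other list, up to 4 genes called with the block by smallest p; 1 gene was left out of these lists and their counts and is not reported here. Coding and 3′ UTR sequences are those of canonical GENCODE transcripts lifted to GRCh37.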

Additional observations from a re-analysis of the deposited data

Results flagged for a closer look

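In BAX and BCL2 the isolates moved in opposite directions upon HMGB1 knockdown. The log2-fold change of BAX was 0.041 in I90-10 and −0.13 in I90-79, and that of BCL2 was −0.53 in I90-10 and 0.13 in I90-79. Each isolate has 1 library per group, so the difference between isolates was not tested. With 2 libraries in each group, no sample could be examined for standing apart from its group.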

How the results depend on the processing

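The numbers of called genes depended on the processing. Of the members, 0 were called up and 0 down without the block, and 3 and 1 with the replicate block. DESeq2 with the block called 3 and 1, beside 967 up and 1091 down of all 15398 genes tested. Without a filter on low counts 3 and 1 were called, and 2 and 1 with DESeq2 or with RUVs and DESeq2. At an adjusted p below 0.05, 1 and 1 were called. Shares over all genes are not given for the fit without a filter, the looser threshold or the fits with a library left out. The calls under these settings are therefore no result about the members. For the 65 other genes, 1 up and 8 down were called with the replicate block, 1 and 7 with DESeq2, with DESeq2 and the block, with RUVs and without a filter, and 0 and 7 at an adjusted p below 0.05. Other factors for library size, a minimum of 10 counts, bias-adjusted deviances, thinning and dropping the fold threshold left these counts as they were. Leaving out 1 library gave 0 to 1 members up (1, PMAIP1, without either control) and 0 to 1 down (1, BCL2L1, without either control), and 0 to 0 and 0 to 2 of the other genes. The median over the members was 0.13 to 0.25 when a library was left out, the lowest without knockdown replicate 2. HMGB1 lay between −3.77 and −3.38, with adjusted p of 0.049 and 0.032 (edgeR) without knockdown replicates 1 and 2.

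The sign of PMAIP1, BCL2L11, MCL1, BCL2L1, BBC3, BID and BAK1 was the same under all 14 alternatives to the model or library set. BAX turned to 0.0044 without knockdown replicate 2 (range −0.089 to 0.0044). BCL2 was 0.13 with RUVs and 0.26 without control replicate 1 (range −0.65 to 0.26). BCL2A1 was −0.12 with RUVs, −0.34 without control replicate 1, −0.26 without knockdown replicate 2 and 2.97 without control replicate 2. The cause was not tested. BCL2 and BCL2A1 have the fewest reads of the members, 17 to 213 a library.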
